A study of Mus musculus with 6 samples.

Results

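The genes described here are 38 markers of meningeal fibroblasts and of the extracellular matrix, measured in microglia from mice labelled as knockout or wild type for the microRNA gene Mir137. They were chosen as rows of the deposited count table whose symbol is on a list of 38 names, and all 38 were found among its 24411 symbols. All 38 also passed the filter on low counts that left 13403 genes for testing. The list was chosen with earlier results of these data known, so counts over it are descriptions. The RNA came from microglia, the macrophages that live in brain tissue, isolated from the brains of C57BL/6J mice at 8 weeks of age. There were 2 groups of 3 libraries, Mir137 knockout (gKO) and wild type (gWT). The labels name no other allele or agent for either group, and they do not say how the knockout was made or which cells carry it. The design text speaks of 4 mice without tying them to libraries, and whether the 3 libraries of one genotype are 3 animals is not stated. What the p-values measure is thus the spread among libraries, and that may be technical.

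Meningeal fibroblasts line the surface of the brain and follow larger vessels inward, and they secrete collagens, proteoglycans and the laminins and nidogens of the basement membrane under the glia. Cells of the arachnoid and pia also carry solute transporters and make retinoic acid and prostaglandin D synthase. Microglia are not known as a main source of most of these proteins, although macrophages do make some of them, such as fibronectin and thrombospondin-1. In sequencing of a bulk sample, fewer cells of a type and less RNA per cell cannot be told apart.

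The gene targeted in gKO encodes the microRNA below, shown because its seed defines the sites searched for in the members. Its mature form (RefSeq, GRCm38.p6, chr3:118433901-118433923, plus strand) is written 5′ to 3′ with the seed, bases 2 to 8, in capitals.
mmu-miR-137-3p: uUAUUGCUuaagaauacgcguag
A perfect match to this seed in a messenger RNA reads AGCAATA. Among the 38 members, 4 held it in the longest annotated 3′ UTR (GENCODE M21): Tbx18 with 3 matches, Pcolce2 with 2, and Pdgfra and Aldh1a2 with 1 each. The other 34 held none. Over all 19534 genes of the table with an annotated 3′ UTR, 9.98% held at least 1. The matches in Tbx18, the member with most of them, start at bases 57, 527 and 2228 of a UTR of 2421 bases. They are shown with 10 bases on each side and the match in capitals.
Tbx18, base 57: atttttttaaAGCAATAtagggaaaat
Tbx18, base 527: aggtatctatAGCAATAaaggcttagc
Tbx18, base 2228: ggtaaaatctAGCAATActgtacaaat
The log2 fold changes of gKO over gWT for the 4 genes with matches were -1.60 for Tbx18, -0.60 for Pcolce2, -0.19 for Pdgfra and -0.45 for Aldh1a2. All 4 were negative, as were 35 of all 38 members, and none was called by the main test (edgeR with all libraries, described below). DESeq2 called Tbx18 lower and none of the other genes with matches. Tbx18 also stands in the authors' deposited list of lower genes, at -1.61.

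Depth was similar in all libraries, with totals of 14603884 to 17652976 counts. One library, gKO replicate 3, stood apart from the other 5. Its score on principal component 1 (39% of the variance) was 91.5, and the scores of the others ran from -37.7 to -3.45. The longer a transcript, the lower this library stood against the average library (Spearman rho = -0.54 over 13319 genes, which are not independent replicates). The values of the other libraries lay between -0.03 and 0.31. Xist, made from the inactive X chromosome of females, was counted 0, 0 and 8 times in the gKO libraries but 2519, 2000 and 1830 times in the gWT ones, and the Y-linked gene Ddx3y had between 1220 and 1522 counts in every library. Each gWT library thus held RNA of both Xist and Y-linked genes, as a mix of female and male animals would, whereas Xist was at or near 0 in gKO. Whether a library pools animals is not stated, so n = 3 counts libraries. Expression linked to sex moved with genotype, and the 2 cannot be told apart here. Of the members, Bgn and Gpc3 lie on the X chromosome. The defining markers of microglia were abundant in both groups: 10 of them summed to 40282 to 42698 CPM (a count scaled by library total and TMM factor) in gKO and 39533 to 42395 CPM in gWT.

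As a group the fibroblast and matrix genes were a small part of each library and were lower in gKO. Their summed level was 1149, 1214 and 1023 CPM in gKO replicates 1, 2 and 3 and 2158, 1699.8 and 1724 CPM in gWT, so every gKO library lay below every gWT library. Of the 38, 35 had a negative log2 fold change, with a median of -0.92, whereas 49.1% of all tested genes were negative, with a median of 0.01. In 23 members all 3 gKO values lay under all 3 gWT values, against 11.3% of all tested genes. Twist2 is among the negative and among the non-overlapping members, and it passed the filter on low counts through its gWT libraries alone. In Thbs1 alone among the members all gKO values lay above all gWT values, against 10% of all tested genes.

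Only Serpinh1 and Nid1 passed the test and fell in gKO (quasi-likelihood test of edgeR at an adjusted p under 0.05, Benjamini-Hochberg over all 13403 genes). That is 2 of 38 members, against 0.231% of all tested genes. By the same test 0 members rose, against 0.395% of all tested genes. At an unadjusted p under 0.05, 22 members were lower and 1 was higher, against 5.74% and 5.16% of all tested genes. DESeq2 called 8 members lower and 1 higher, against 1.57% and 1.2% of the genes it tested. Voom with quality weights (limma) also called 8 lower and 1 higher, against 1.13% and 1.95%. The lower members were Serpinh1, Fmod, Bgn, Lama4, Lamb1, Nid1, Islr and Tbx18 by DESeq2. By voom they were Dcn, Ptgds, Serpinh1, Fn1, Ogn, Nid1, Islr and Mgp. Thbs1 was the higher member in both. Below, a call without a named method is that of edgeR with all libraries. The edgeR count depended on single libraries: without gKO replicate 3, 15 members were lower and Thbs1 was higher, against 3.82% and 3.99% of all tested genes. Without any other single library, gKO or gWT, edgeR called 0 of the 38. The whole table then gave few calls as well: 0.00727% lower and 0.0291% higher without gKO replicate 1, 0.00723% and 0.0289% without gKO replicate 2, and 0% without any of the gWT libraries. With RLE factors the 2 members called were again Serpinh1 and Nid1 (0.224% of all genes lower), as they were with upper-quartile factors (0.254% lower and 0.343% higher). Without a filter Islr was called lower too, which made 3 members (0.285% of all genes lower and 0.369% higher). With the replicate number as a block 0 members were called (0.0522% lower and 0.0821% higher), and whether the numbers pair these libraries is not stated. The authors' deposited list of 201 lower genes holds 6 members (Serpinh1, Nid1, Islr, Tbx18, Lamb1 and Serping1), and the authors' deposited list of higher genes holds 0.

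**Figure D1:**
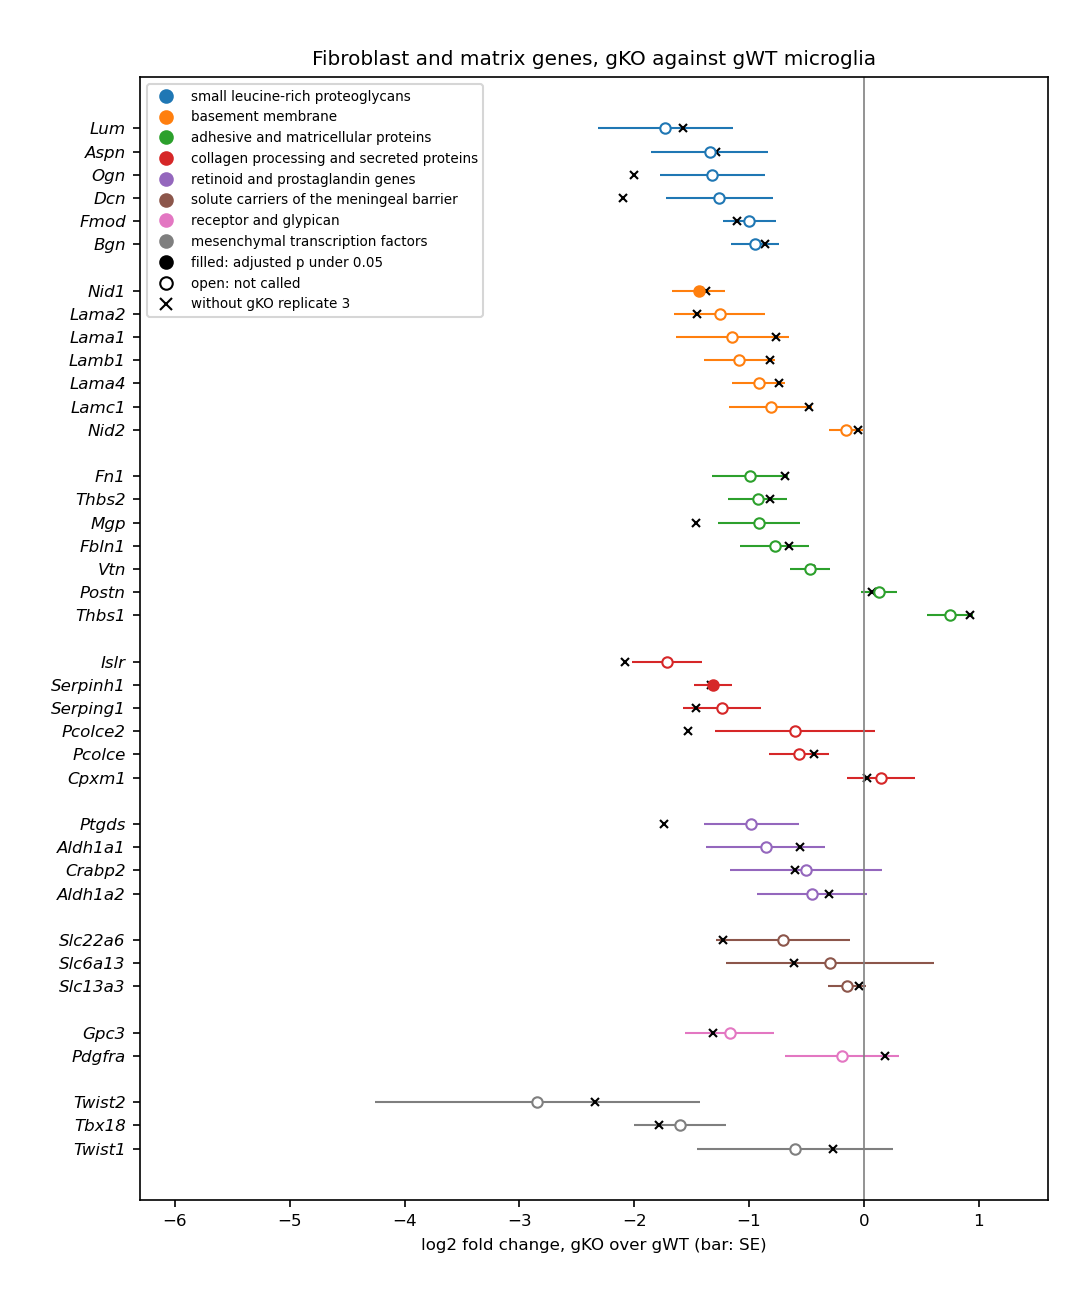
Log2 fold change of gKO over gWT for each of the 38 members (points, with bars for SE), grouped and coloured by role; filled points passed the test, open points did not, and crosses give the fold change without gKO replicate 3. All but 3 points lie left of 0, and the filled ones are Serpinh1 at -1.31 and Nid1 at -1.44.

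Collagen processing and other secreted proteins held the member with the smallest p. Serpinh1 (chr7:99345376-99353239, minus strand) encodes HSP47, the chaperone that binds procollagen in the endoplasmic reticulum. It had 25, 23.2 and 24.7 CPM in gKO replicates 1, 2 and 3 and 72.2, 56.3 and 52.8 CPM in gWT. The gKO libraries were close together and far below the lowest gWT library. The gene fell 2.49-fold (log2 fold change -1.31 with an SE of 0.17, adjusted p = 0.0221 by edgeR), with group means of 24.3 ± 0.918 and 60.4 ± 10.4 CPM (SD, n = 3 each). It was also called without gKO replicate 3 (log2 fold change -1.33, edgeR adjusted p = 0.000129). In the fits that lacked one of the other libraries its edgeR adjusted p lay between 0.0815 and 0.200. In the authors' deposited table its log2 fold change is -1.31 (adjusted p = 4.38e-08).

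Islr (chr9:58156268-58204306, minus strand) encodes a secreted leucine-rich repeat protein of mesenchymal cells, also called meflin. It had 4.7, 6.65 and 10.4 CPM in gKO replicates 1, 2 and 3 and 26.6, 23.3 and 21.2 CPM in gWT. The groups did not overlap, the highest gKO value being less than the lowest gWT value by more than the range within either group. It did not pass the test (log2 fold change -1.71 with an SE of 0.31, adjusted p = 0.0618 by edgeR) and did without gKO replicate 3 (log2 fold change -2.08, edgeR adjusted p = 0.000121), and it stands in the authors' deposited table at -1.71 (adjusted p = 7.76e-05). The annotated exons of Islr share 181 bases, 6.74% of their length, with its neighbour Islr2 on the same strand, so reads there can be counted for either gene. Serping1, the inhibitor of complement C1, had 5.78, 3.09 and 6.72 CPM in gKO replicates 1, 2 and 3 and 14.6, 11.9 and 10.3 CPM in gWT. All gKO values were below all gWT values, and the gene was not called (log2 fold change -1.24 with an SE of 0.34, adjusted p = 0.206 by edgeR). In the authors' deposited table it has -1.24 (adjusted p = 0.050).

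The procollagen C-proteinase enhancers, which speed the removal of the C-terminal propeptide from collagen, differed less. Pcolce had 10.6, 8.92 and 7.14 CPM in gKO replicates 1, 2 and 3 and 16, 11 and 12.5 CPM in gWT (log2 fold change -0.56), with a small gap between the groups. Pcolce2 had 1.32, 1.03 and 4.38 CPM in gKO replicates 1, 2 and 3 and 5.66, 2.51 and 1.99 CPM in gWT, with gKO replicate 3 inside the gWT range. Cpxm1, a carboxypeptidase-like matrix protein, had 5.61, 7.48 and 8.13 CPM in gKO replicates 1, 2 and 3 and 5.6, 7.77 and 5.74 CPM in gWT, with overlapping groups and a positive fold change of 0.15 on the log2 scale. Of these 6 members, 1 fell and 0 rose, against 0.231% and 0.395% of all tested genes. Without gKO replicate 3, 3 were called lower, against 3.82%.

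The small leucine-rich proteoglycans bind collagen fibrils and set their diameter and spacing. All 6 members were below gWT in every gKO library, with a median log2 fold change of -1.29, and edgeR with all libraries called 0. Dcn encodes decorin, the usual marker of fibroblasts. It had 6.13, 5.49 and 19.5 CPM in gKO replicates 1, 2 and 3 and 29.3, 21.9 and 23 CPM in gWT. Replicate 3 was 3.36 times the mean of the other gKO libraries and lay close under the lowest gWT library, and the gene did not pass the test (log2 fold change -1.26 with an SE of 0.47, adjusted p = 0.38 by edgeR). Lum encodes lumican and lies beside Dcn on chromosome 10, with 46984 bases between them. It had 0.916, 0.96 and 0.636 CPM in gKO replicates 1, 2 and 3 and 3.0, 2.29 and 3.1 CPM in gWT (log2 fold change -1.73 with an SE of 0.59, adjusted p = 0.329 by edgeR). Here replicate 3 was the lowest library, and no gKO library reached 1 CPM.

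Ogn and Aspn, which encode osteoglycin and asporin, are neighbours on chromosome 13 with 40480 bases between them. Ogn had 4.81, 3.02 and 11 CPM in gKO replicates 1, 2 and 3 and 19.7, 12.1 and 15.2 CPM in gWT (log2 fold change -1.32 with an SE of 0.46, adjusted p = 0.341 by edgeR), with replicate 3 the highest gKO library. Aspn had 1.49, 1.23 and 1.2 CPM in gKO replicates 1, 2 and 3 and 3.3, 4.29 and 2.4 CPM in gWT (log2 fold change -1.34 with an SE of 0.51, adjusted p = 0.39 by edgeR), with all gKO libraries close together. Fmod, fibromodulin, had 8.13, 9.05 and 10.5 CPM in gKO replicates 1, 2 and 3 and 22, 17.5 and 15.7 CPM in gWT (log2 fold change -1.0 with an SE of 0.23, adjusted p = 0.145 by edgeR). Bgn, biglycan, which lies on the X chromosome (chrX:73483602-73495933), had 27.9, 27.4 and 22.3 CPM in gKO replicates 1, 2 and 3 and 64.1, 44.6 and 40.9 CPM in gWT (log2 fold change -0.95 with an SE of 0.21, adjusted p = 0.128 by edgeR). Neither was called by edgeR with all libraries, whereas DESeq2 with all libraries called both lower. Bgn was also called lower by edgeR with each library's trend with transcript length removed. Voom with quality weights called Dcn and Ogn lower. Without gKO replicate 3, Dcn, Ogn, Fmod and Bgn were called lower, Dcn with a log2 fold change of -2.10 and Bgn with -0.86.

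Basement membrane members were the laminin chains, which assemble as trimers into a sheet, and the nidogens, which link that sheet to collagen IV. Nid1 (chr13:13437551-13512269, plus strand) had 21.9, 22 and 18.5 CPM in gKO replicates 1, 2 and 3 and 74.5, 42.1 and 52.9 CPM in gWT. It fell 2.71-fold (log2 fold change -1.44 with an SE of 0.23, adjusted p = 0.0388 by edgeR), with group means of 20.8 ± 1.99 and 56.5 ± 16.5 CPM (SD, n = 3 each). Values in gKO were nearly equal, whereas those in gWT ranged widely, with replicate 1 the highest. Without gKO replicate 3 it was also called (log2 fold change -1.37, edgeR adjusted p = 0.0011), and in the fits that lacked one of the other libraries its edgeR adjusted p lay between 0.125 and 0.234. In the authors' deposited table it has -1.44 (adjusted p = 8.17e-06).

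Nid2, its paralog, had 231, 237 and 182 CPM in gKO replicates 1, 2 and 3 and 264, 222 and 236 CPM in gWT, with overlapping groups (log2 fold change -0.15 with an SE of 0.15, adjusted p = 0.777 by edgeR). It was the only member with counts that were not whole numbers, and 437 bases of its annotated exons (8.45%) overlap Rtraf on the opposite strand, so reads may be shared between these genes.

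The 5 laminin members all had negative fold changes and edgeR with all libraries called 0, whereas DESeq2 called Lama4 and Lamb1 lower. Lama4, a chain of vascular laminins, had 16.8, 17.4 and 10.9 CPM in gKO replicates 1, 2 and 3 and 32.3, 26.7 and 26.1 CPM in gWT (log2 fold change -0.92 with an SE of 0.23, adjusted p = 0.175 by edgeR). Lamb1 had 18.6, 17.9 and 8.55 CPM in gKO replicates 1, 2 and 3 and 38.8, 29.4 and 27.4 CPM in gWT (log2 fold change -1.08 with an SE of 0.31, adjusted p = 0.225 by edgeR), and the authors' deposited table lists it at -1.09 (adjusted p = 0.0443). In both, replicate 3 was the lowest library. Lama2, a laminin chain also known from muscle, had 4.81, 3.91 and 6.22 CPM in gKO replicates 1, 2 and 3 and 18.4, 6.86 and 10.4 CPM in gWT (log2 fold change -1.26 with an SE of 0.40, adjusted p = 0.296 by edgeR), with the lowest gWT library close above the gKO range.

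Lama1 had 6.7, 9.4 and 2.26 CPM in gKO replicates 1, 2 and 3 and 18.9, 9.2 and 12.7 CPM in gWT (log2 fold change -1.15 with an SE of 0.49, adjusted p = 0.454 by edgeR). Its groups overlapped, since gKO replicate 2 was above gWT replicate 2. Lamc1, the gamma chain shared by most laminins, had 81.4, 90.9 and 30.7 CPM in gKO replicates 1, 2 and 3 and 146, 99.8 and 111 CPM in gWT (log2 fold change -0.81). Replicates 1 and 2 of gKO lay just under the gWT range and replicate 3 far under it. Without gKO replicate 3, Lama2, Lama4, Lamb1 and Nid1 were called lower.

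**Figure D2:**
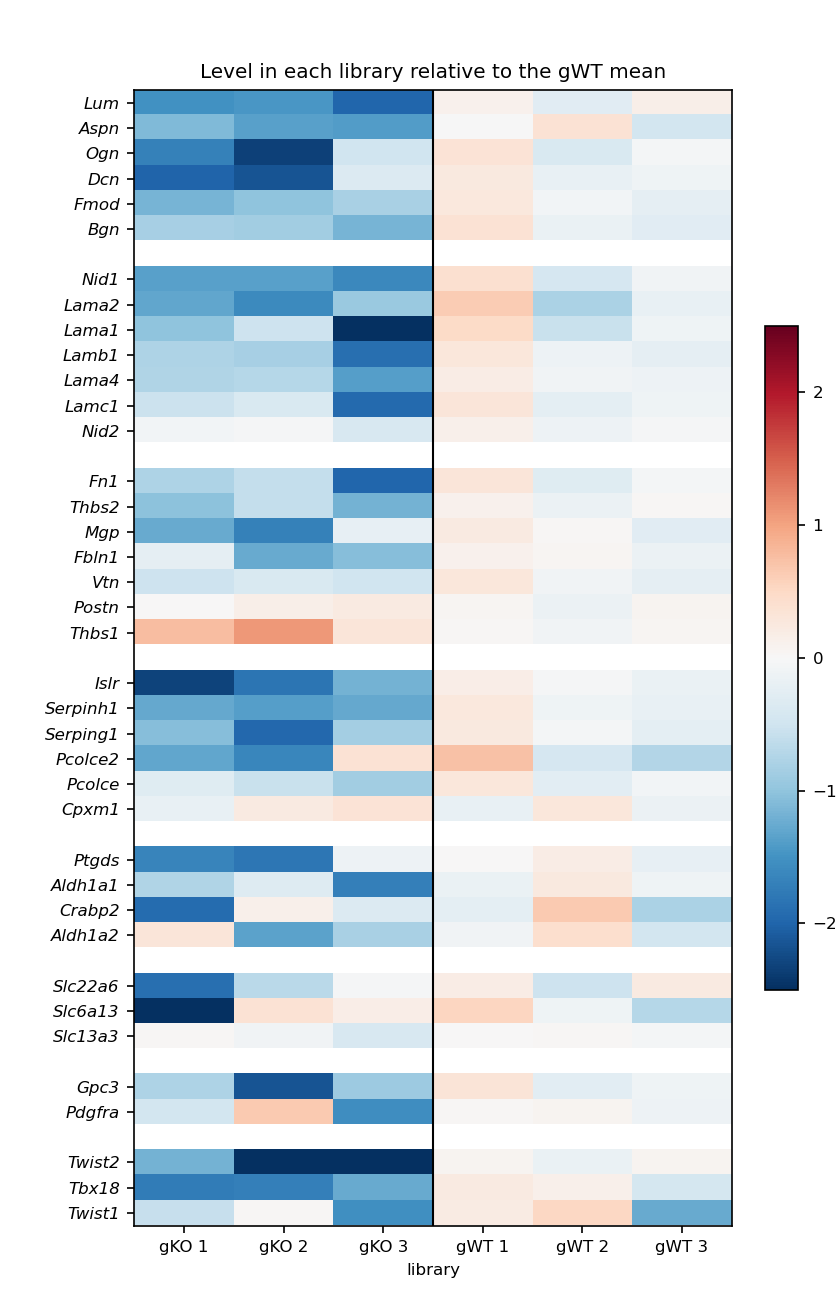
Level of each member (rows, grouped by role in the same order as the plot of fold changes) in each library (columns), as log2 of CPM plus 0.1 over the mean gWT CPM plus 0.1; blue is below and red above the gWT mean, and values beyond the ends of the scale take the end colour. The gKO columns are mostly blue in the proteoglycan and basement membrane rows, Thbs1 is red in gKO, and gKO 3 departs from gKO 1 and 2 in rows such as Dcn, Ptgds and Lamc1.

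Adhesive and matricellular proteins, which tie cells to the matrix or modulate that contact, lay on both sides of gWT. EdgeR with all libraries called 0 of the 7. Fn1 encodes fibronectin, a product of fibroblasts and also of monocytes and macrophages. It had 324, 366 and 141 CPM in gKO replicates 1, 2 and 3 and 677, 446 and 533 CPM in gWT (log2 fold change -1.0 with an SE of 0.33, adjusted p = 0.319 by edgeR). Replicate 3 was the lowest library and the groups did not overlap. Thbs1 encodes thrombospondin-1, an activator of latent TGF-beta that activated macrophages and platelets also make. It had 82.6, 102 and 59.7 CPM in gKO replicates 1, 2 and 3 and 49.6, 45.5 and 50.2 CPM in gWT, all gKO values being above all gWT values, but it was not called (log2 fold change 0.75 with an SE of 0.20, adjusted p = 0.197 by edgeR). Without gKO replicate 3 it was called as higher (log2 fold change 0.92, edgeR adjusted p = 0.000224). With all libraries it was called higher by DESeq2, by voom with quality weights and by edgeR with the length trend removed. Beside it, the summed level of 11 monocyte and neutrophil markers was 603, 593 and 1124 CPM in gKO replicates 1, 2 and 3 and 315, 385 and 377 CPM in gWT, and that of 8 border macrophage markers was 1606 to 1725 CPM in gKO and 1524 to 1574 CPM in gWT. Their part in the Thbs1 difference was not tested.

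Its relative Thbs2, a product of fibroblasts, had 6.41, 8.71 and 5.73 CPM in gKO replicates 1, 2 and 3 and 14.2, 11.9 and 13.5 CPM in gWT and so lay on the other side of gWT (log2 fold change -0.92 with an SE of 0.26, adjusted p = 0.212 by edgeR). Mgp, matrix Gla protein, an inhibitor of calcification, had 24.5, 18 and 50.8 CPM in gKO replicates 1, 2 and 3 and 68.4, 59.4 and 47.9 CPM in gWT (log2 fold change -0.91 with an SE of 0.36, adjusted p = 0.403 by edgeR), with gKO replicate 3 inside the gWT range. Vtn, vitronectin, is also a known marker of pericytes. It had 35.8, 39.6 and 36.3 CPM in gKO replicates 1, 2 and 3 and 62.5, 48.2 and 43.8 CPM in gWT (log2 fold change -0.47 with an SE of 0.17, adjusted p = 0.38 by edgeR), so that the gap to the lowest gWT library was small.

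Fbln1, fibulin-1, had 16.1, 7.75 and 8.91 CPM in gKO replicates 1, 2 and 3 and 20.1, 19.3 and 16.9 CPM in gWT (log2 fold change -0.78 with an SE of 0.30, adjusted p = 0.397 by edgeR), with gKO replicate 1 close under the lowest gWT library. Postn, periostin, had 28.8, 31.4 and 33.4 CPM in gKO replicates 1, 2 and 3 and 29.6, 25.8 and 30 CPM in gWT (log2 fold change 0.13), and its groups overlapped. Without gKO replicate 3, Mgp was called lower and Thbs1 higher. With all libraries Fn1 and Mgp were called lower by voom with quality weights and by edgeR with the length trend removed.

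Retinoid and prostaglandin genes included Ptgds, the member with the highest level per kilobase of transcript in gWT. Ptgds encodes the enzyme that makes prostaglandin D2, an abundant protein of cerebrospinal fluid made by the leptomeninges among others. It had 85.7, 77.6 and 249 CPM in gKO replicates 1, 2 and 3 and 272, 306 and 234 CPM in gWT. Replicate 3 was 3.05 times the mean of the other gKO libraries and within the gWT range, and the gene was not called (log2 fold change -0.98 with an SE of 0.41, adjusted p = 0.443 by edgeR). Without that library it was called lower (log2 fold change -1.74, edgeR adjusted p = 2.01e-07). Choroid plexus and oligodendrocytes also make Ptgds: the sum of 9 ependymal and choroid plexus markers, most of it Ttr, was 1227, 987 and 2894 CPM in gKO replicates 1, 2 and 3 and 2919.8, 1804 and 1733 CPM in gWT, with replicate 3 likewise the highest in gKO. In that list Foxj1, Clic6, Kl and Ccdc153 were highest in gKO replicate 1 instead, Clic6 with 14.9, 9.81 and 13.5 CPM and Kl with 17.3, 10.5 and 14.5 CPM in gKO replicates 1, 2 and 3. The sum of 8 oligodendrocyte markers was 397, 443 and 374 CPM in gKO replicates 1, 2 and 3 and 359, 345 and 349 CPM in gWT, so that it was higher in every gKO library and lowest within gKO in replicate 3. Short transcripts in general stood higher in gKO replicate 3, and that of Ptgds has 901 bases. In the shortest of 10 length bins of tested genes (median 956 bases), the median log2 ratio of replicate 3 to the mean of gKO replicates 1 and 2 was 0.87. The part of these cells, or of transcript length, in the Ptgds values was not tested.

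Aldh1a1 and Aldh1a2 encode enzymes that oxidize retinal to retinoic acid, and Crabp2 a protein that delivers retinoic acid to its receptor. Aldh1a1 had 2.0, 2.74 and 0.99 CPM in gKO replicates 1, 2 and 3 and 3.06, 4.11 and 3.22 CPM in gWT (log2 fold change -0.85), and its groups did not overlap. Aldh1a2 had 7.73, 2.4 and 3.53 CPM in gKO replicates 1, 2 and 3 and 5.83, 8.4 and 4.51 CPM in gWT (-0.45 on the log2 scale), with gKO replicate 1 inside the gWT range. Crabp2 had 0.802, 3.63 and 2.62 CPM in gKO replicates 1, 2 and 3 and 2.77, 5.31 and 1.87 CPM in gWT (-0.50), with gKO replicate 1 the lowest library. With all libraries edgeR and DESeq2 called 0 of the 4 genes of this group. Ptgds was called lower by voom with quality weights (limma adjusted p = 7.61e-05) and by edgeR with the length trend removed (adjusted p = 0.0146).

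The solute carriers of the meningeal barrier, which move small molecules between blood, brain and cerebrospinal fluid, had overlapping groups in all 3 cases. Slc13a3, a dicarboxylate transporter, had 34.3, 31.7 and 25.5 CPM in gKO replicates 1, 2 and 3 and 34.1, 34.3 and 32.9 CPM in gWT (log2 fold change -0.15), and its gKO replicate 1 was as high as the gWT libraries. Slc6a13, a GABA transporter of the leptomeninges, had 3, 86 and 72 counts in gKO replicates 1, 2 and 3, against 113, 74 and 47 in gWT. The value of gKO replicate 1 was far below those of the other 5 libraries, which did not separate by genotype. Its fold change changed sign without gKO replicate 1 (from -0.30 to 0.27 on the log2 scale). Slc22a6, an organic anion transporter, had 15, 31 and 48 counts in gKO replicates 1, 2 and 3, against 67, 42 and 69 in gWT, with gKO replicate 1 again the lowest (log2 fold change -0.71).

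Pdgfra and Gpc3 act at the cell surface. Pdgfra, the receptor for PDGF-A, marks fibroblasts and also oligodendrocyte precursors. It had 5.78, 12.7 and 2.69 CPM in gKO replicates 1, 2 and 3 and 8.25, 8.46 and 7.38 CPM in gWT. The gKO libraries ranged from well under to well over the gWT libraries, and the fold change of -0.19 (SE 0.50) became 0.19 on the log2 scale without gKO replicate 3. The sum of 7 markers of oligodendrocyte precursors was 15.2, 18.9 and 14.1 CPM in gKO replicates 1, 2 and 3 and 32.8, 23.9 and 33.1 CPM in gWT, and like Pdgfra it was highest within gKO in replicate 2. Of the 5 markers that passed the filter, 3 had negative and 2 positive log2 fold changes, and edgeR called 0. Cspg4 was the most negative at -2.01, with 4.01, 4.8 and 2.12 CPM in gKO and 20.3, 9.94 and 14 CPM in gWT. Olig2 (0.77) and Sox10 (0.12) were positive. The part of these cells in the Pdgfra values was not tested. Gpc3, an X-linked glypican that binds Hedgehog and other growth factors, had 7.33, 2.74 and 6.65 CPM in gKO replicates 1, 2 and 3 and 15.7, 10.4 and 11.6 CPM in gWT (log2 fold change -1.17 with an SE of 0.39, adjusted p = 0.319 by edgeR), with all gKO values below all gWT values.

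The mesenchymal transcription factors were at low levels. Tbx18, a T-box factor of pericytes and perivascular fibroblasts, had 1.6, 1.65 and 2.26 CPM in gKO replicates 1, 2 and 3 and 6.54, 6.11 and 4.1 CPM in gWT (log2 fold change -1.60 with an SE of 0.40, adjusted p = 0.177 by edgeR). The groups did not overlap. It was called without gKO replicate 3 (log2 fold change -1.79, edgeR adjusted p = 0.0315), and the authors' deposited table gives -1.61 (adjusted p = 0.0248). This is the member whose 3 seed matches are printed above. An annotated transcript on the opposite strand, D030062O11Rik, overlaps 20.6% of its exons, and no strand setting is given for the counting.

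Twist1 and Twist2 are basic helix-loop-helix factors of mesenchyme. Twist1 had 16, 21 and 6 counts in gKO replicates 1, 2 and 3, against 28, 36 and 9 in gWT, with overlapping groups. Twist2 had 5, 0 and 0 counts in gKO replicates 1, 2 and 3, against 14, 12 and 14 in gWT, and its edgeR adjusted p was 0.527. All gKO values lay under all gWT values. With a minimum count of 10, Twist2 passed the filter through its gWT libraries alone, so this gap follows in part from the filter. With so few counts the fitted fold change of Twist2, drawn in the plot of fold changes, depends on the prior count of the fit and is not given here. The antisense gene Gm29100 overlaps 46.5% of its exons, and reads from the 2 cannot be told apart without strand.

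Levels were compared between members per kilobase of transcript. On this scale Ptgds was highest in gWT at 300.4 ± 40 CPM per kilobase, then came Mgp at 94.9 ± 16.6, Fn1 at 66.4 ± 14.1, Nid2 at 49.4 ± 4.43, Vtn at 29.5 ± 5.61 and Serpinh1 at 26.6 ± 4.56 (SD, n = 3 libraries). These 6 genes stood in the same order in every gWT library, although the gWT ranges of Mgp and Fn1, of Fn1 and Nid2, and of Vtn and Serpinh1 overlapped. In gKO, Ptgds had 152 ± 107, Mgp 50.4 ± 28.2, Nid2 44.4 ± 6.17 and Fn1 33.3 ± 14.4 CPM per kilobase. By mean, Nid2 thus stood below Fn1 in gWT and above it in gKO. At the other end, Twist2 had 0.308 ± 0.0313 CPM per kilobase in gWT and was the lowest member.

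**Figure D3:**
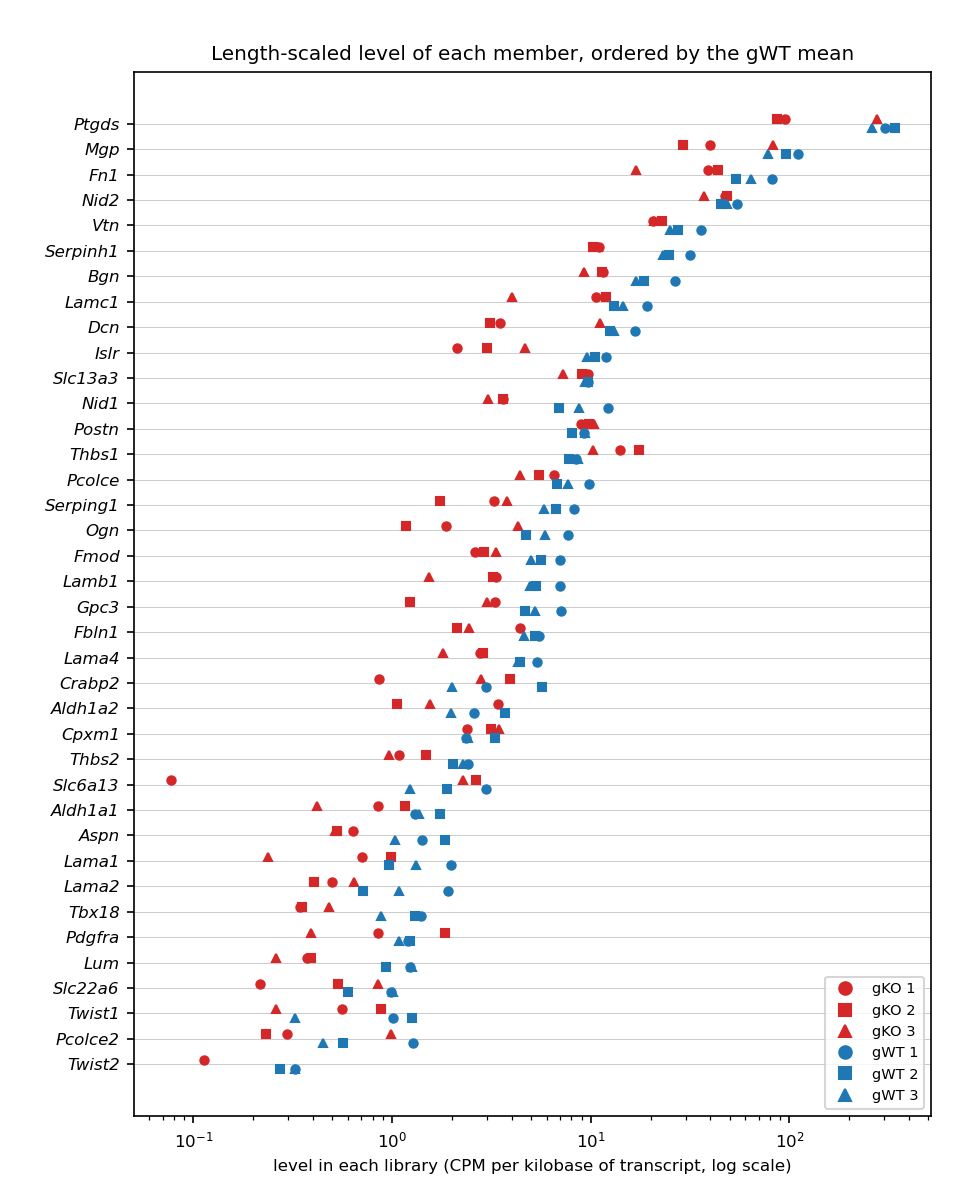
Level of each member in each library in CPM per kilobase of transcript, on a log scale, with members ordered by the gWT mean; red marks gKO, blue gWT, and the shape gives the replicate. Values of 0 (Twist2 in gKO 2 and 3) are not drawn. Ptgds is highest and Twist2 lowest in gWT, and the blue points lie right of the red ones in Serpinh1, Nid1 and Islr.

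How the members differed within gKO followed transcript length in part. In 13 members gKO replicate 3 was the highest gKO library, and in 17 it was the lowest. The first had a median transcript length of 2566 bases and the second of 5557 bases. Dcn (3.36 times the mean of replicates 1 and 2, transcript of 1758 bases), Ptgds (3.05 times, 901 bases) and Mgp (2.39 times, 617 bases) lay on the high side. Fn1 (0.408 times, 8315 bases), Lamc1 (0.356 times, 7622 bases) and Lama1 (0.281 times, 9526 bases) lay on the low side. Over the 38 members the Spearman correlation of this ratio with length was -0.41, and over 13319 tested genes it was -0.56. All points share the same 3 libraries, so these are descriptions.

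The fold change of gKO over gWT had a correlation of -0.02 with length over the same 38 members. When each library's trend with length was removed before the fit, edgeR called 9 members lower and 1 higher, against 1.05% and 1.19% of all tested genes. This setting was chosen after the data were examined. Within gWT, replicate 1 was the highest library in 25 of the 38 members.

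**Figure D4:**
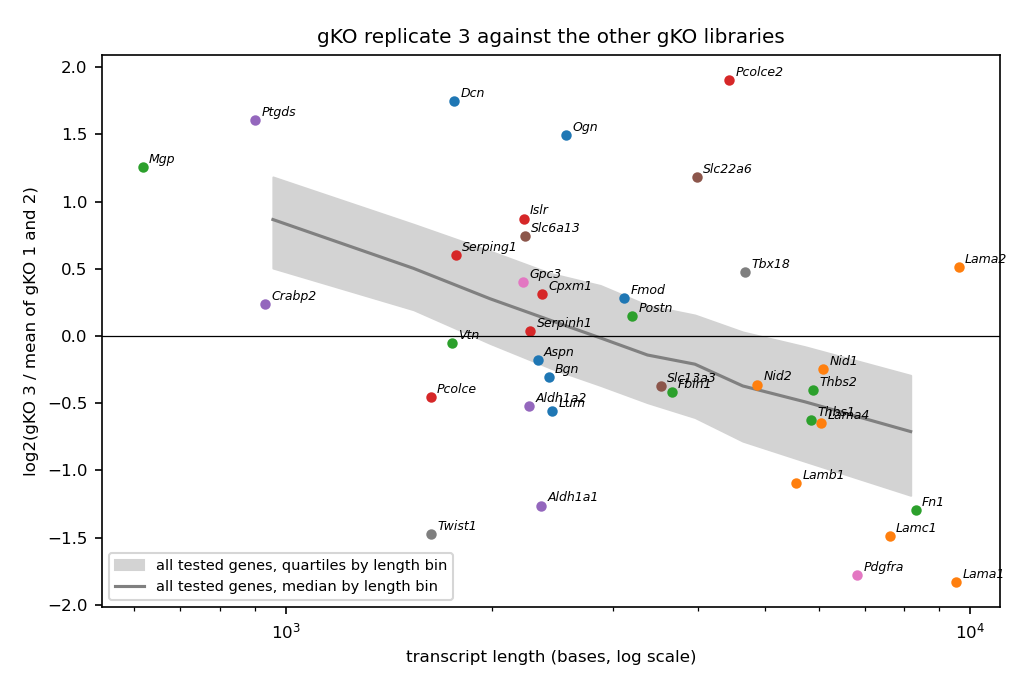
Log2 ratio of gKO replicate 3 to the mean of gKO replicates 1 and 2 for each member (points coloured by role as in the plot of fold changes) against transcript length on a log scale; the grey line and band give the median and quartiles over all tested genes in 10 bins of length. Short members such as Ptgds and Mgp lie above 0 and long ones such as Fn1 and Lama1 below it; Twist2, at 0 in gKO 3, is not drawn.

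Promoters are shown for the 3 members with the smallest p, Serpinh1, Nid1 and Islr. Each window runs from 250 bases before to 50 bases after the annotated start (RefSeq, GRCm38.p6), 5′ to 3′ on the gene's strand. The Islr window belongs to a start inside the gene span given above (chr9:58156268-58204306). On the minus strand the 5′ end of that span is base 58204306, and no window at that end is shown. Capitals mark matches to a GC box (GGGCGG), a TEAD motif (GGAATG), an AP-1 motif (TGANTCA), a heat shock element (GAANNTTC), a TATA box (TATAAA) or the microRNA site (AGCAATA), on either strand.
Serpinh1, chr7:99353190-99353489, minus strand: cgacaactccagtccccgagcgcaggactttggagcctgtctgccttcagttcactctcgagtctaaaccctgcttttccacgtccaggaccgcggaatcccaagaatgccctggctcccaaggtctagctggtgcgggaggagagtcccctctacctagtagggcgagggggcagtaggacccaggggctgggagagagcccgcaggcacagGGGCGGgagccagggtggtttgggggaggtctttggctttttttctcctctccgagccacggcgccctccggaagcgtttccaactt
Nid1, chr13:13437352-13437651, plus strand: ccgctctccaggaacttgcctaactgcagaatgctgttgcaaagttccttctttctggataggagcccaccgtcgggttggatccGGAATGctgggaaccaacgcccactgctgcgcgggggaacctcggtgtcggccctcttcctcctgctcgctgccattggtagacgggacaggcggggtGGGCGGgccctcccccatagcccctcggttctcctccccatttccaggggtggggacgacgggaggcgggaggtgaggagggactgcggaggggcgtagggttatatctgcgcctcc
Islr, chr9:58158505-58158804, minus strand: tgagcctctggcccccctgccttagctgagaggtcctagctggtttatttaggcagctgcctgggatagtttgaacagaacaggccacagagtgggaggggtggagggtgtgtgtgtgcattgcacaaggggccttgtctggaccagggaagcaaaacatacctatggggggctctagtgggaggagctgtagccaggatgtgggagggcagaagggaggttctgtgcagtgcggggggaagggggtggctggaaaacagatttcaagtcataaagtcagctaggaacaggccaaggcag
Serpinh1 held 1 GC box at base 214 of the window. Nid1 held 1 at base 184 and 1 TEAD match at base 86. In the Islr window these letters were not found, and it held 1 E-box (CANNTG, not capitalized) at base 54. No heat shock element letters were found in the Serpinh1 window.

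Windows were at hand for 27 members, 32 in all because some genes have several starts. A GC box was in 43.8% of the member windows and 35.7% of all 32851 windows, and a TEAD match in 18.8% and 14.7%. A TATA box was in 18.8% and 13.6%, an AP-1 match in 6.25% and 7.81%, a heat shock element in 6.25% and 7.86%, and an E-box in 75% and 72.3%. The microRNA site was in 0 of the 32 member windows and in 2.16% of all windows. Matches to different motifs were counted separately and may share bases. These are counts of letters, not of bound sites.

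Beyond the members, 52 other fibroblast and matrix genes were examined from a list of collagens, elastic fibre proteins, crosslinking enzymes and meningeal factors. All 52 passed the filter, 11 fell and 0 rose by edgeR, against the 0.231% and 0.395% given above. Their median log2 fold change was -1.26, 49 were negative, and in 42 all gKO values lay under all gWT values, against the 11.3% of all tested genes. With the members, they made up 13 of the 31 genes called lower in the whole table. Both lists were chosen with earlier results of these data known, so this share is a description only. Without gKO replicate 3, 33 were called lower and 1 higher, against 3.82% and 3.99% of all tested genes. Without any other single library 0 were called lower, where at most 0.00727% of all tested genes were.

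Largest among the called genes was the fall of Foxc2, a forkhead factor of the meninges, with 3.03, 1.78 and 2.26 CPM in gKO and 11.3, 12.2 and 12.2 CPM in gWT (log2 fold change -2.32 with an SE of 0.30, adjusted p = 0.0221 by edgeR). Next came the collagen VI chain Col6a2 (12.5, 11.8 and 8.48 CPM in gKO and 44.8, 32.6 and 34.4 CPM in gWT) and the fibrillar collagen Col5a2 (19.5, 19.4 and 13 CPM in gKO and 68.9, 48.8 and 52.9 CPM in gWT). Their log2 fold changes were -1.77 and -1.72, with no overlap between groups. Fstl1, a secreted glycoprotein of mesenchyme, had 21.9, 28.7 and 19.2 CPM in gKO and 94.2, 61.7 and 60.3 CPM in gWT. Col6a1 had 13.6, 12.1 and 11.2 CPM in gKO and 46.5, 32.2 and 31 CPM in gWT, and Eln, elastin, had 404, 359 and 225 CPM in gKO and 1169, 917 and 867 CPM in gWT. All 6 fell by this test. Col1a1 and Col1a2, the chains of the collagen I that Serpinh1 folds, fell with log2 fold changes of -1.36 and -1.28 (edgeR adjusted p = 0.0221 and 0.0221), beside the -1.31 of Serpinh1. The 3 genes with positive fold changes were Cyr61 (0.71), S100a6 (0.45) and Col15a1 (0.15), and edgeR with all libraries called none of them. In Cyr61 all gKO values (54.8, 57.7 and 42.7 CPM) lay above all gWT values (32.1, 31.8 and 31.2 CPM), as in 10% of all tested genes.

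Markers of vessels had mostly negative fold changes as well. Of 10 endothelial markers, all 10 were negative, 1 was called lower and 9 had all gKO values under all gWT values, with a median log2 fold change of -0.89. Their sum was 503, 508 and 430.2 CPM in gKO replicates 1, 2 and 3 and 988, 792 and 772 CPM in gWT. Of 9 mural markers, 8 were negative, 1 was called lower and 7 had all gKO values under all gWT values, with a median of -1.19, and their sum was 124, 118 and 67.2 CPM in gKO replicates 1, 2 and 3 and 289, 208 and 208 CPM in gWT. Over all tested genes 49.1% were negative, 0.231% were called lower and 11.3% had all gKO values under all gWT values. For the members the corresponding median was -0.92. In each of these 3 lists gWT replicate 1 had the highest sum of the 6 libraries. The 8 astrocyte markers were all negative (median -0.64, 0 called, 4 with an unadjusted p under 0.05 in edgeR).

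For the remaining cell types the values were as follows. The 11 monocyte and neutrophil markers were all positive (median 1.13, 3 called higher), and in 8 all gKO values lay above all gWT values. Over all tested genes 0.395% were called higher, and in 10% all gKO values lay above all gWT values. The 8 oligodendrocyte markers had a median of 0.13, the 10 microglial markers -0.01 and the 8 border macrophage markers 0.18. Without gKO replicate 3 the median of the border macrophage markers changed sign to -0.06. The medians in that fit were 0.76 for the monocyte and neutrophil markers, 0.24 for the oligodendrocyte markers and -0.04 for the microglial markers. Of the oligodendrocyte markers 1 was called higher. Sums of neuronal markers were 11.5 to 17 CPM in gKO and 15.1 to 22.6 CPM in gWT. Erythroid sums were 39.8, 39 and 133 CPM in gKO replicates 1, 2 and 3 and 88.3, 77.8 and 100.04 CPM in gWT, with Hba-a1 listed at 0 in every library. The part of vessel-associated cells in the lower matrix values of gKO was not tested.

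**Figure D5:**
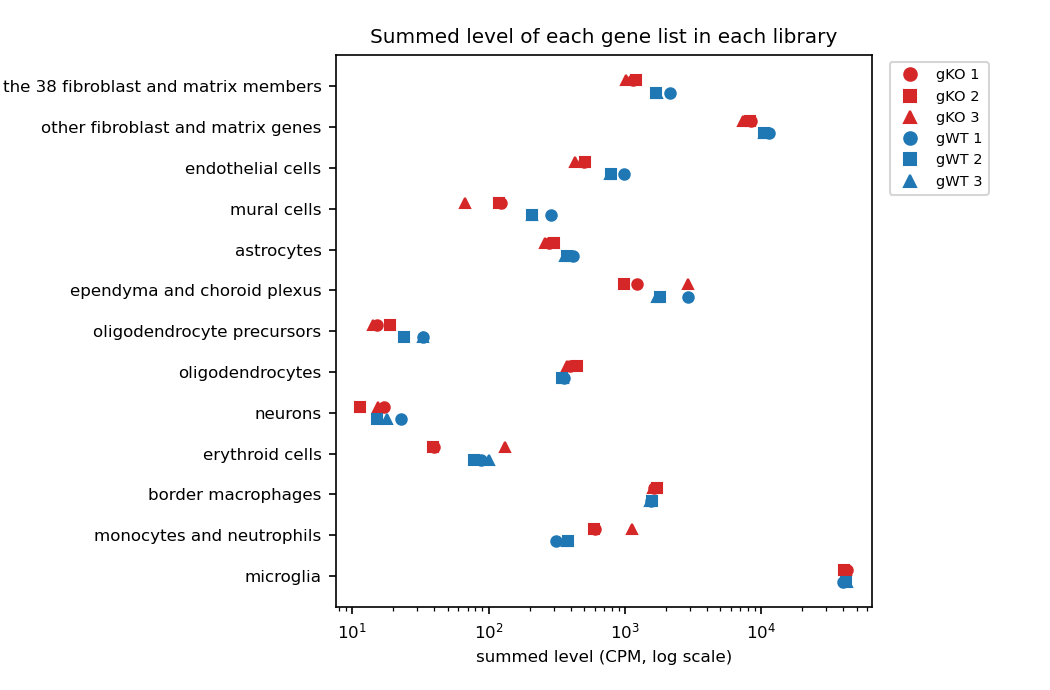
Summed level of each gene list in each library (CPM, log scale); red marks gKO, blue gWT, and the shape gives the replicate. Sums of the members, of the other matrix genes and of the endothelial and mural lists are lower in every gKO library, while the microglial sums of both groups lie together.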

How the data were processed

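Expected counts of 6 microglia libraries, not normalized, were deposited by the authors with 1 row per symbol. Their 2 deposited lists of differing genes hold, per the file headers, log2 fold changes. The mean normalized count in those deposited lists is a signal, the SE and test statistic deposited beside it are scores, and each gene has a deposited p-value, raw and adjusted. Per the submitters' processing notes, STAR 2.7.9a, RSEM, DESeq2 and GRCm38/mm10 were used (roles and order unstated). Which gene annotation and strand setting the counting used is not given in these sources.

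After rounding, the counts went into edgeR 4.0.16 under R 4.3.3 (TMM, filterByExpr, robust quasi-likelihood test on genotype alone, Benjamini-Hochberg adjustment over 13403 genes, threshold 0.05). SE is the absolute log2 fold change over the square root of F. Alternatives used RLE and upper-quartile factors, no filter, DESeq2 1.42.0, voom with quality weights (limma 3.58.1), the replicate number as a block, removal of the length trend and each library left out. Coordinates, overlaps and lengths (APPRIS principal transcript, otherwise the longest) are from GENCODE M21 on GRCm38. Of the 24411 symbols, 23368 were matched by name and 660 by synonym.

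The members and gene lists were chosen with earlier results of these data known. Values in every library are given for called members, those with an unadjusted p under 0.05 and the 6 highest per kilobase, and those of the remaining members were added to this rule. From the other matrix genes, the 6 called ones with the largest fold change are named, together with the collagen I genes and the 3 positive genes, which were added after their values were seen. No libraries were merged as duplicates, since chi-square per degree of freedom was at least 6.53 between any pair within a group. Depth was 14603884 to 17652976 counts per library.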

Additional observations from a re-analysis of the deposited data

How the results depend on the processing

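The direction of the members as a list was the same in every setting run, and the number called was not. The median log2 fold change lay between -1.01 and -0.81 in the fits that left out one library, with -0.81 both without gKO replicate 3 and without gWT replicate 1. Members called lower were 8 by DESeq2, 8 by voom with quality weights, 9 with the length trend removed, 0 with the replicate block and 0 to 15 without one library. Members called higher were 1 by DESeq2, 1 by voom, 1 with the length trend removed and 0 to 1 without one library. Other matrix genes called lower were 26 by DESeq2, 19 by voom, 22 with the length trend removed, 4 with the block and 0 to 33 without one library. Over all genes, those higher were 179 by DESeq2, 261 by voom, 159 with the length trend removed, 11 with the block and 0 to 551 without one library. Those lower were 235, 152, 140, 7 and 0 to 528 in the same order, and 47 without a filter. RLE and upper-quartile factors changed the call of no member, and Islr was called lower without a filter.

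Serpinh1 and Nid1 kept their direction in all these fits. With the replicate block their edgeR adjusted p was 0.0603 and 0.0699. Whether the replicate numbers pair the samples is not stated. Deviations of same-numbered libraries had correlations of 0.05, -0.05 and 0.02. Among the gKO libraries only replicate 1 correlated best with its own number, and among the gWT libraries only replicate 3. With so few libraries, and gKO replicate 3 apart from the rest, these values cannot decide it. Sign changes on leaving out one library were seen in Pdgfra (-0.92 to 0.19, positive without gKO replicate 3), Slc6a13 (-0.81 to 0.27, positive without gKO replicate 1 and, at 0.083, without gWT replicate 1) and Crabp2 (-0.97 to 0.012, positive without gWT replicate 2), and none of these genes was called in any fit. The cause of these changes was not tested. Twist2, at 0 to 14 counts a library, has the least depth of the members.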
